A study of Mus musculus with 12 samples.

Results

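The genes described here encode the chains of 2 protein families of cell adhesion, the integrins and the laminins. They were taken as every protein-coding gene of the table whose symbol names an integrin alpha chain, an integrin beta chain, or a laminin alpha, beta or gamma chain. The rule found 37 of 55862 genes, namely 18 integrin alpha, 8 integrin beta, 5 laminin alpha, 3 laminin beta and 3 laminin gamma genes, and it used no measured value.

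The table covers 12 samples from mouse brain in 4 groups of 3, all labelled C57BL/6, with C57BL/6J given for both NPC groups in the methods of the study. Primary astrocytes of the neonatal cerebral cortex, grown as a layer in medium with serum and taken at day 0 of sphere culture, formed the group ASTs. A-iSCs were ASTs that had been kept as floating spheres on agarose for 5 days. For P56-NPCs the subependymal zone was dissociated at postnatal day 56, and for P0-NPCs the hippocampus at postnatal day 0. Neither cell suspension is described as sorted for a marker, so each can hold every cell type of its tissue. No group carried an introduced gene or allele in these libraries as far as the labels say. The labels do not say whether the 3 samples of a group came from separate animals or cultures, so p-values measure only the spread between these samples, which may be technical.

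Integrins span the cell membrane as pairs of an alpha and a beta chain, bind matrix proteins or counter-receptors outside the cell, and couple to the actin cytoskeleton inside it through adaptor proteins. The alpha chain largely sets the ligand, which may be laminin, collagen, proteins with an RGD motif such as fibronectin, or, for the leukocyte integrins, adhesion molecules of other cells. Laminins are secreted trimers of an alpha, a beta and a gamma chain that polymerise into basement membranes with nidogens, perlecan and collagen IV. In brain, laminins line vessels and the pial surface, astrocytes contact them through integrins and dystroglycan, and microglia carry the leukocyte integrins.

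Levels are FPKM, the fragments of a gene divided by its length in kilobases and by a library size. The library size implied by the deposited values differed from the total of fragments. Because FPKM is corrected for length, levels may be compared between genes. Between 17077780 and 24452419 fragments lay on genes per sample, and 3 fragments on a gene of 1 kilobase corresponded to 0.103 to 0.187 FPKM, a floor that covers counting error only. Mitochondrial genes took 16.5 to 17.6% of the fragments in P56-NPCs and 2.94 to 7.03% in the other groups. AST replicate 2 and A-iSC replicate 3 stood apart from the other replicates of their groups, with a chi-square per degree of freedom of at least 43.5 and 83.3 against them, where the pairs without these libraries reached 2.63 and 13.4.

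The labelled cell types were checked against 8 markers each. The summed level of astrocyte markers, among them Gfap, the intermediate filament of astrocytes, was 121 to 136 FPKM in ASTs and 1194 to 2426 FPKM in A-iSCs, so these markers were present but low in ASTs. ASTs also had 1711 to 2129 FPKM of mural cell markers, nearly all from smooth muscle actin gene Acta2 (1848 FPKM), with Rgs5, Kcnj8, Abcc9 and Higd1b each under 1 FPKM. The neural precursor markers summed to 697 to 851 FPKM in ASTs, 778 to 856 in A-iSCs, 187 to 224 in P56-NPCs and 812 to 938 in P0-NPCs, so their sum was lowest in P56-NPCs. The single markers were mixed. By the test described below, 3 of the 8 were called higher in P56-NPCs than in ASTs, 4 lower and 1 not called. Among all genes tested there, 39.1% were higher and 39.8% lower. P56-NPCs in addition held 12128 to 13975 FPKM of oligodendrocyte markers.

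Of the 37 genes, 28 had a mean of at least 1 FPKM in some group and 20 had a mean of at least 5 FPKM. The mean was highest in ASTs for 13 of the genes, in A-iSCs for 7, in P56-NPCs for 9 and in P0-NPCs for 8. Both integrin totals had the order ASTs, A-iSCs, P56-NPCs, P0-NPCs. The 18 alpha genes summed to a median of 280.5 FPKM in ASTs, 88.5 in A-iSCs, 34.6 in P56-NPCs and 27 in P0-NPCs, and the 8 beta genes to 807, 244, 146 and 84.4 FPKM. Laminin totals followed another order, in that P56-NPCs were lowest for alpha, beta and gamma chains alike. The medians of the laminin alpha total, for example, were 37.6 FPKM in ASTs, 15.7 in A-iSCs, 4.78 in P56-NPCs and 15.3 in P0-NPCs. In bulk RNA, fewer cells of a type and less RNA per cell cannot be told apart.

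**Figure D1:**
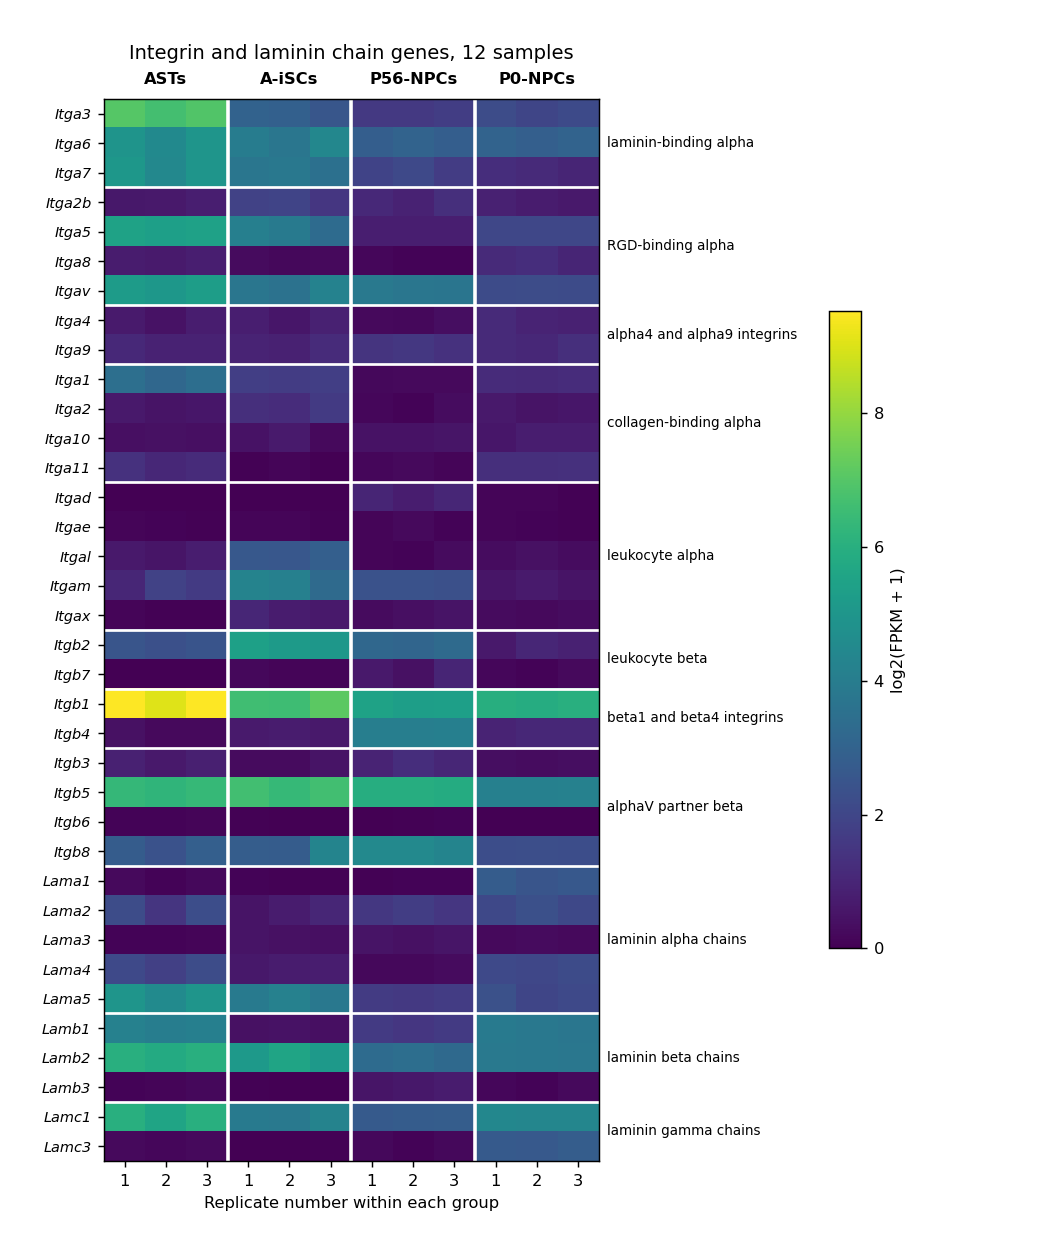
Level of integrin and laminin chain genes in each of the 12 samples, as log2(FPKM + 1) by color, with genes in rows grouped by role and samples in columns by group. Itgb1 and Itga3 are brightest in ASTs, Itgb2, Itgam and Itgal in A-iSCs, Itgb4 in P56-NPCs, and Lama1 and Lamc3 in P0-NPCs.

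The main comparison asked how the 5 days in spheres changed these genes. From ASTs to A-iSCs, the 22 genes that could be tested moved mostly downward, with 15 lower, 5 higher and 2 not called. A gene was tested when its mean reached 1 FPKM in at least 1 of the groups compared, and its call needed an adjusted p under 0.05 (limma on log2(FPKM + 1), Benjamini-Hochberg). All 7 laminin genes tested fell, as did 8 of 15 integrin genes, while the 5 that rose were integrin alpha or beta genes. Itga2, Itga2b and Itgal reached 1 FPKM only in A-iSCs, so the filter left them no direction but a rise. Likewise Itga11, Lama2, Lama4 and Lamb1 reached it only in ASTs and could be called only lower. These genes are part of the counts and of the median. Over all 14087 genes tested, 29.6% were called lower and 25.2% higher. The median log2 fold change was -1.13 for the 22 genes and -0.059 for all genes tested. The groups did not overlap in 20 of the 22, compared with 62.7% of all genes tested. Leaving out both AST replicate 2 and A-iSC replicate 3 gave the same counts of 5 higher and 15 lower, where 33.8% of all genes were higher and 39.1% lower.

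Itgb1 encodes the beta chain shared by most matrix-binding integrins and had the highest level of all 37 genes in every group but P56-NPCs, where Itgb5 was higher. It lies at chr8:128685654-128733200, plus strand of the mouse build GRCm38. Its levels were 717, 538 and 734 FPKM in ASTs, 96, 94.5 and 138 in A-iSCs, 43.4, 39.5 and 40.8 in P56-NPCs and 62, 58.5 and 63.2 in P0-NPCs. Every AST sample was above every A-iSC sample, and every A-iSC sample was above every sample of both NPC groups. The log2 fold change of A-iSCs over ASTs was -2.59 ± 0.21 (SE, adjusted p = 6.24e-05), a ratio of means of 6.05 in favor of ASTs. Itgb1 made up 88% ± 1.19 (SD, n = 3) of the summed beta chain FPKM in ASTs and 43.4% ± 4.13 in A-iSCs.

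Among the 3 alpha chains that bind laminin, Itga3, which pairs with the beta1 chain, fell most (chr11:95044474-95076801, minus strand). Itga3 was measured at 126, 102 and 121 FPKM in ASTs, 6.99, 6.64 and 4.85 in A-iSCs, 2.02, 2.0 and 2.28 in P56-NPCs and 3.62, 2.97 and 3.46 in P0-NPCs. The AST samples lay apart from all others, and the mean was 18.9 times as high in ASTs as in A-iSCs, with a log2 fold change of -4.05 ± 0.16 (SE, adjusted p = 4.87e-06). Itga6, whose product pairs with the beta1 or the beta4 chain and is a surface marker of several stem cells, was at 29.3, 22.1 and 29.9 FPKM in ASTs, 15.1, 12.3 and 20.5 in A-iSCs, 6.23, 7.26 and 6.2 in P56-NPCs and 7.08, 6.29 and 7.08 in P0-NPCs. The highest A-iSC sample was replicate 3, and it was still below the lowest AST sample. Itga6 changed by -0.75 ± 0.20 (SE, adjusted p = 0.0174). This call was lost without AST replicate 1 or 3 and without A-iSC replicate 1 or 2, where the log2 fold changes were -0.68, -0.67, -0.72 and -0.59 and the adjusted p ranged from 0.0509 to 0.0625. It was also lost when the fragments were scaled by library size alone, with -0.54 (adjusted p = 0.0626).

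Itga7, a laminin receptor chain best known from muscle, stood at 32.1, 20.8 and 30.3 FPKM in ASTs, 12.2, 13.1 and 10.5 in A-iSCs, 2.74, 3.32 and 2.25 in P56-NPCs and 1.36, 1.17 and 0.996 in P0-NPCs. It fell by less than Itga3, with a log2 fold change of -1.13 ± 0.18 (SE, adjusted p = 0.00162). In ASTs, Itga3 thus gave 68.2% ± 1.91 of the FPKM of the laminin-binding alpha chains, Itga6 15.8% ± 0.605 and Itga7 16% ± 1.47. In A-iSCs the largest of the 3 shares was that of Itga6, at 46.5% ± 9.65, followed by Itga7 at 35.2% ± 5.85 and Itga3 at 18.2% ± 4.03. The shares of Itga6 and Itga7 overlapped between A-iSC samples.

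Of the 3 RGD-binding chains tested, Itga5 and Itgav fell and Itga2b rose. Itga5, the alpha chain of the classical fibronectin receptor, was at 43.6, 40.1 and 42.8 FPKM in ASTs, 16.4, 14.3 and 9.14 in A-iSCs, 0.759, 0.72 and 0.726 in P56-NPCs and 3.13, 3.1 and 3.05 in P0-NPCs. All 4 groups were separate, in the order ASTs, A-iSCs, P0-NPCs and P56-NPCs. Its log2 fold change in A-iSCs was -1.63 ± 0.20 (SE, adjusted p = 4.51e-04). Itgav, the partner of several beta chains that bind vitronectin or latent TGF-beta, was at 36.3, 31.7 and 38.4 FPKM in ASTs, 12.4, 11 and 17.5 in A-iSCs, 13.3, 12.4 and 12 in P56-NPCs and 3.58, 3.62 and 3.55 in P0-NPCs. A-iSC and P56-NPC samples overlapped, below ASTs and above P0-NPCs, and the log2 fold change of A-iSCs over ASTs was -1.34 ± 0.18 (SE, adjusted p = 6.66e-04). Itga8 remained under 1 FPKM in ASTs and A-iSCs, so it was not tested there. Itga2b, the platelet fibrinogen receptor chain, rose from a mean of 0.608 to 2.46 FPKM, a log2 fold change of 1.1 ± 0.15 (SE, adjusted p = 7.10e-04). Of 4 platelet markers, Pf4 went from 3.89 to 28.4 FPKM while Ppbp, Gp1ba and Gp9 were under 1 FPKM in both groups, and the part of platelets in the value of Itga2b was not tested.

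The collagen-binding chains moved in both directions. Itga1 was at 10.1, 8.08 and 9.75 FPKM in ASTs, 2.44, 2.22 and 2.41 in A-iSCs, 0.161, 0.191 and 0.196 in P56-NPCs and 1.24, 1.2 and 1.3 in P0-NPCs and fell in A-iSCs by a log2 fold change of -1.61 ± 0.12 (SE, adjusted p = 3.61e-05). Itga2, which binds collagen in the same way, rose instead, from 0.401 to 0.56 FPKM in ASTs to 1.33 to 2.05 FPKM in A-iSCs. Its log2 fold change was 0.81 ± 0.14 (SE, adjusted p = 0.00218). Itga1 and Itga2 are neighbors on chromosome 13, with 21 kb between them and the same orientation, and no A-iSC sample overlapped the AST samples for either gene. Itga11, a collagen receptor of fibroblasts, fell from 1.31 to 0.0508 FPKM, the latter from 18 fragments in the 3 A-iSC samples together. On log2(FPKM + 1), which understates changes of low genes, this was -1.13 ± 0.13 (SE, adjusted p = 3.03e-04). Itga10 was under 1 FPKM in all 4 groups and shares 33.5% of its exon bases with the gene model Gm42957.

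Windows of 250 bases before the RefSeq start of a gene were held for 23 of the 37 genes, 26 windows in all, since Itga3, Itgb6 and Lamb3 have 2 each. They are shown for Itgb1 and Lama5, which fell, for Itgam, which rose, and for Itga1 and Itga2, neighbors that moved apart. Each is written in the direction of its gene and lies on GRCm38.p6 at chr8:128685404-128685653, plus strand, at chr2:180225860-180226109, minus strand, at chr7:128062390-128062639, plus strand, at chr13:115101965-115102214, minus strand, and at chr13:114932101-114932350, minus strand, in the order shown. Capitals mark GGGCGG (the GC box), GAGGAA (a core bound by ETS factors), TATAAA (the TATA box), CATTCC (the core of TEAD factor sites) and TGACTCA (AP-1), on either strand, so that CCGCCC and TTCCTC are the reverse of the first and the second.
Itgb1: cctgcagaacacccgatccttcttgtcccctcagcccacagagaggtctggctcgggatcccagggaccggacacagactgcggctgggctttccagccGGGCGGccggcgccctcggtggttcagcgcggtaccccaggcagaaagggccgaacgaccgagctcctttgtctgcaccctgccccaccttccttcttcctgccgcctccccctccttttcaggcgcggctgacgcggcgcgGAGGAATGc
Lama5: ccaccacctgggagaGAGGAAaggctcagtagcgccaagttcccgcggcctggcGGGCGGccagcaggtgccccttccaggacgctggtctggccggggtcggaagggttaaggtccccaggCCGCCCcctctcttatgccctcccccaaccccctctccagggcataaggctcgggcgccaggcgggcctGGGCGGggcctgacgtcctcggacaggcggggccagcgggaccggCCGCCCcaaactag
Itgam: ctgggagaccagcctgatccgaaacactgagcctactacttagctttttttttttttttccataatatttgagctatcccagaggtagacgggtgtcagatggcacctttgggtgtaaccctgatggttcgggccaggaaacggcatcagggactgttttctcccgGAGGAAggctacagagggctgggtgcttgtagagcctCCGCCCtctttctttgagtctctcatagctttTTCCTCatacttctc
Itga1: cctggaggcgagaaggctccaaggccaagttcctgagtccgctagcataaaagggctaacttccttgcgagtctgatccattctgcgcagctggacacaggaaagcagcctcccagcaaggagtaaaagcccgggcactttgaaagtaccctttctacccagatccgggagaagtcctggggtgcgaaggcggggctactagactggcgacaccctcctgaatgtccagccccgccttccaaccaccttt
Itga2: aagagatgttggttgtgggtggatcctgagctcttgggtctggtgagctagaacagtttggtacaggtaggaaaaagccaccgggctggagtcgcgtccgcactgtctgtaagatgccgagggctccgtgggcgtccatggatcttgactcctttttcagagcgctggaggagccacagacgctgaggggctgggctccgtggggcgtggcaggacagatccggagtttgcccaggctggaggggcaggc

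The Itgb1 window ends in an overlap of GAGGAA with the reverse of CATTCC. In the windows of Itga1 and Itga2 none of the 5 motifs was found. GAGGAA was in 13 of the 26 windows and in 23.2% of 32851 windows of all genes, and GGGCGG in 9 of 26 and in 32.7%. TATAAA was in 0 of 26 and in 12.4%, CATTCC in 3 of 26 and in 12.6%, and TGACTCA in 1 of 26, that of Itgax, and in 4.46%. These matches describe letters in the windows and say nothing of binding.

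Of 5 leukocyte alpha and 2 leukocyte beta genes, the 3 that could be tested, Itgb2, Itgam and Itgal, rose, where 25.2% of all genes tested did. Itgal reached 1 FPKM only in A-iSCs, so the filter left it no direction but a rise. Itgb2, the beta chain of all leukocyte-specific alphaL, alphaM, alphaX and alphaD integrins, was at 4.67, 4.04 and 4.57 FPKM in ASTs, 41.7, 35 and 32.2 in A-iSCs, 8.17, 7.72 and 8.89 in P56-NPCs and 0.587, 1.01 and 0.845 in P0-NPCs. A-iSC samples were the highest, P56-NPC samples came next, and P0-NPC samples were lowest, with no overlap between any of the groups. The log2 fold change of A-iSCs over ASTs was 2.77 ± 0.13 (SE, adjusted p = 6.92e-06), the largest rise on the log2(FPKM + 1) scale among the 22 genes tested, while by the ratio of means Itgal rose more (9.65 against 8.2). Itgam, which encodes the CD11b chain used to mark microglia and macrophages, was at 1.06, 2.63 and 2.04 FPKM in ASTs, 18.3, 16.7 and 8.74 in A-iSCs, 4.25, 4.33 and 4.01 in P56-NPCs and 0.444, 0.622 and 0.426 in P0-NPCs. A-iSC replicate 3 lay between the other A-iSC samples and the P56-NPC samples, and P0-NPC samples were lowest. For A-iSCs over ASTs it changed by 2.4 ± 0.31 (SE, adjusted p = 5.37e-04) on the log2 scale. Itgam shares 68.7% of its exon bases with the gene model Gm49368 on the same strand, so the split of their fragments is uncertain.

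Itgal, the alpha chain of the lymphocyte function-associated antigen, was at 0.581, 0.45 and 0.68 FPKM in ASTs, 5.09, 4.97 and 6.47 in A-iSCs, 0.105, 0.0759 and 0.203 in P56-NPCs and 0.26, 0.335 and 0.232 in P0-NPCs. Only the A-iSC samples exceeded 1 FPKM, and the log2 fold change over ASTs was 2.05 ± 0.13 (SE, adjusted p = 2.15e-05). Itgax, the CD11c chain, was under the threshold of 1 FPKM for a test, with 0.0448 to 0.0869 FPKM in ASTs and 0.575 to 1.04 FPKM in A-iSCs. Itgad had no fragment in any of the 6 AST and A-iSC samples, where 3 fragments would have given 0.0248 to 0.0397 FPKM. Itgae and Itgb7, chains of lymphocyte integrins, stayed at or below 0.108 and 0.143 FPKM in these samples. The leukocyte alpha chains together made up 1.0% ± 0.37 of the alpha chain FPKM in ASTs and 23% ± 4.16 in A-iSCs.

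Microglia markers moved the same way. All 8, among them the receptor genes Csf1r, Cx3cr1 and P2ry12, passed the test as higher in A-iSCs, where 25.2% of all genes tested did, and their sum was 143 to 160 FPKM in ASTs, 1335 to 1683 in A-iSCs, 618 to 658 in P56-NPCs and 85.5 to 98.7 in P0-NPCs. Their part in the rise of Itgb2, Itgam and Itgal was not tested. T cell markers (Cd3e, Cd3d, Cd3g and Trac) summed to at most 0.349 FPKM in the AST and A-iSC samples.

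**Figure D2:**
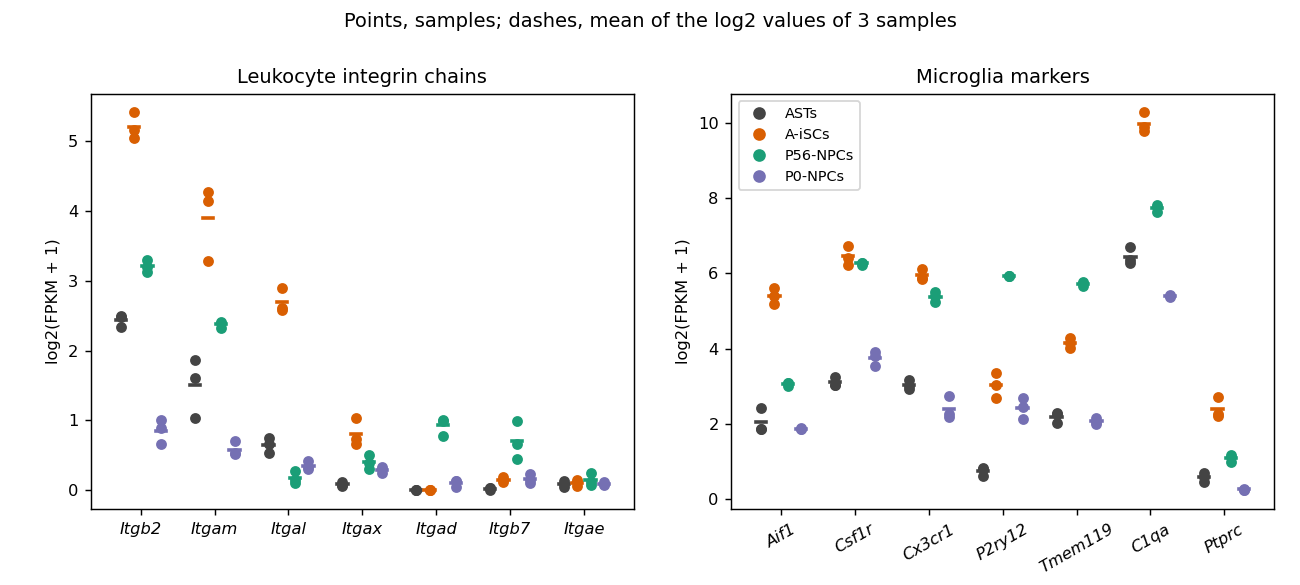
Leukocyte integrin chains (left) and microglia markers (right) in each sample, on log2(FPKM + 1). Points are samples, dashes are means of the log2 values of the 3 samples of a group. Itgb2, Itgam and Itgal and the markers plotted lie above ASTs in A-iSCs, and P2ry12 and Tmem119 are highest in P56-NPCs.

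Neither of the 2 alphaV partner beta chains tested was called. Itgb5, a vitronectin receptor chain, was at 79.1, 74 and 82.7 FPKM in ASTs, 99.1, 81.8 and 100 in A-iSCs, 60.7, 60.3 and 56.6 in P56-NPCs and 16.8, 16.8 and 17 in P0-NPCs. ASTs and A-iSCs overlapped, and the log2 fold change of 0.24 ± 0.13 (SE, adjusted p = 0.159) was not called, although it was with all 4 groups in the model (0.24, adjusted p = 0.0397) and under library size scaling (0.46, adjusted p = 0.0215). The share of Itgb5 in the beta chain FPKM was 10.6% ± 1.18 in ASTs and 37.5% ± 3.07 in A-iSCs. Itgb8, whose product binds latent TGF-beta on astrocytes and neural precursors, was at 5.88, 4.21 and 6.38 FPKM in ASTs, 6.02, 5.9 and 18.5 in A-iSCs, 21.2, 21.3 and 18.4 in P56-NPCs and 3.7, 3.92 and 3.7 in P0-NPCs. A-iSC replicate 3 alone was high among A-iSCs. The log2 fold change of 0.61 ± 0.40 (SE, adjusted p = 0.228) was not called and became -0.033 without AST replicate 2 and A-iSC replicate 3 (adjusted p = 0.687). Itgb3 and Itgb6, the other 2 of this kind, and Itgb4 were under 1 FPKM in ASTs and A-iSCs alike.

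**Figure D3:**
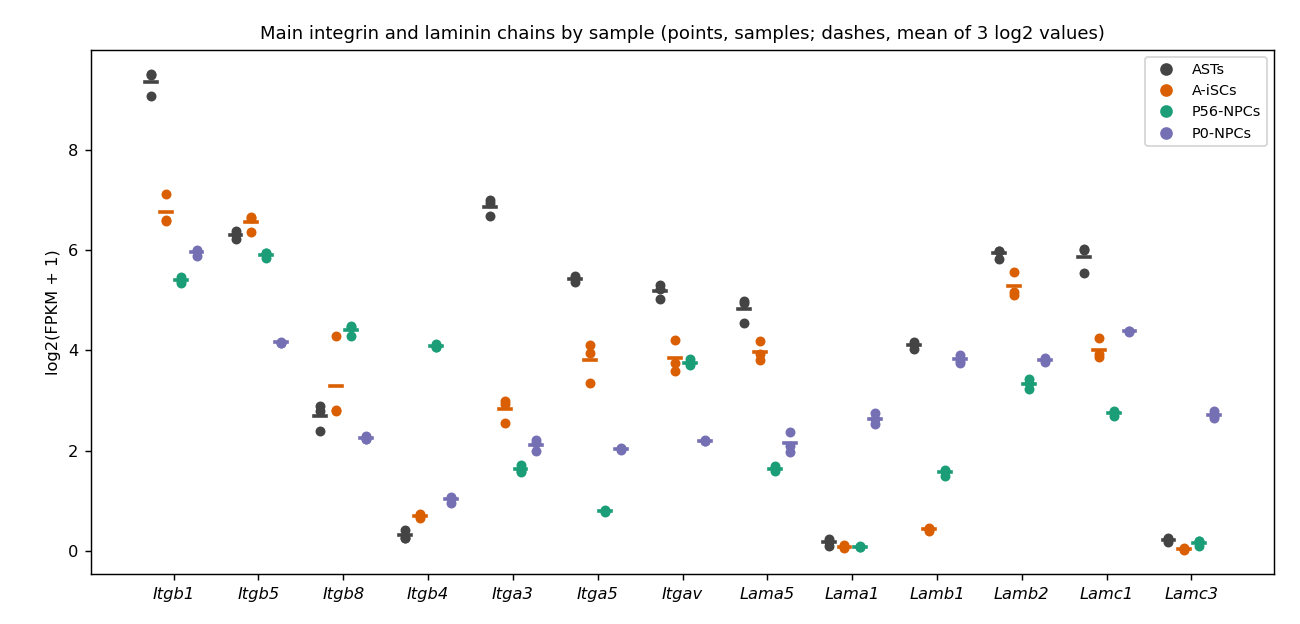
Levels of 13 integrin and laminin chain genes in each sample on log2(FPKM + 1). Points are samples and dashes the means of the log2 values of the 3 samples of a group. ASTs are highest for Itgb1, Itga3, Itga5, Lama5, Lamb2 and Lamc1, and the lone A-iSC point near the P56-NPC points for Itgb8 is replicate 3.

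The laminin genes fell in A-iSCs without an exception among those tested, by unequal amounts. Of these, Lama2, Lama4 and Lamb1 reached 1 FPKM only in ASTs, so the filter left them no direction but a fall. Lama5, the main alpha chain by FPKM in ASTs, was at 30.5, 22.5 and 30 FPKM in ASTs, 14.2, 17.1 and 13.1 in A-iSCs, 2.13, 2.01 and 2.22 in P56-NPCs and 4.19, 2.93 and 3.29 in P0-NPCs, and its log2 fold change was -0.85 ± 0.16 (SE, adjusted p = 0.00347). ASTs and A-iSCs were separate, and both were above the NPC groups. Lama2, the chain that is deficient in a congenital muscular dystrophy, went from 3.08 ± 1.12 (SD, n = 3) to 0.684 ± 0.301 FPKM, with -1.25 ± 0.24 (SE, adjusted p = 0.0037). Lama4, a chain of vessel basement membranes, went from 3.15 ± 0.565 to 0.625 ± 0.069 FPKM, with -1.34 ± 0.13 (SE, adjusted p = 1.57e-04). Lama5 made up 81.3% ± 1.95 of the laminin alpha FPKM in ASTs and 89.4% ± 2.58 in A-iSCs. Lama1 and Lama3 were under 1 FPKM in both groups and were not tested. Lama3 was higher in A-iSCs, at 0.326 to 0.42 FPKM, against 0.0722 to 0.105 in ASTs. The means of Lama1, Lamb3 and Lamc3, also not tested, were lower in A-iSCs.

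Lamb1, a beta chain of embryonic and vascular laminins, had the largest ratio of means between ASTs and A-iSCs among the 22 genes tested, 46.9. It was at 17.1, 15.3 and 16.5 FPKM in ASTs, 0.355, 0.377 and 0.308 in A-iSCs, 2.03, 1.83 and 2.07 in P56-NPCs and 14.1, 12.9 and 12.5 in P0-NPCs. ASTs and P0-NPCs were close, P56-NPCs lower, and A-iSCs lowest with no overlap. The log2 fold change of A-iSCs over ASTs was -3.68 ± 0.10 (SE, adjusted p = 3.09e-06). Lamb2, the other main beta chain, was at 62.5, 55.8 and 62.7 FPKM in ASTs, 34.9, 46.6 and 33.6 in A-iSCs, 9.17, 9.77 and 8.44 in P56-NPCs and 13.3, 13 and 12.6 in P0-NPCs, and its fall of -0.65 ± 0.15 (SE, adjusted p = 0.00946) was smaller. Under library size scaling the fall of Lamb2 was no longer called (-0.44, adjusted p = 0.0558). Of the laminin beta FPKM, Lamb1 gave 21.2% ± 0.393 in ASTs, 0.906% ± 0.102 in A-iSCs, 17% ± 1.75 in P56-NPCs and 50.1% ± 0.968 in P0-NPCs.

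Lamc1, the gamma chain of most laminins, was at 63.8, 45.7 and 63.1 FPKM in ASTs, 14.3, 13.6 and 17.9 in A-iSCs, 5.44, 5.84 and 5.94 in P56-NPCs and 20, 19.7 and 19.8 in P0-NPCs and fell by -1.84 ± 0.17 (SE, adjusted p = 1.24e-04). A-iSCs lay below P0-NPCs and above P56-NPCs. Lamb3, a beta chain of epithelial laminin, was under 1 FPKM in all groups, and so was Lama3. Lamc3 did not reach 1 FPKM in ASTs or A-iSCs.

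Cells other than astrocytes that make laminin were checked by their markers. Meningeal fibroblast markers summed to 149 to 201 FPKM in ASTs, 9.78 to 11.8 in A-iSCs, 12.1 to 18.2 in P56-NPCs and 141 to 157 in P0-NPCs. In ASTs 4 of the 8 were under 1 FPKM (Dcn, Lum, Slc6a13 and Igf2, the last at 0), and collagen gene Col1a1 was at 158 FPKM. Mural cell markers went from 1711 to 2129 FPKM in ASTs to 37.1 to 66.5 in A-iSCs. Nearly all of the AST sum was Acta2, as given above, while Rgs5, Kcnj8, Abcc9 and Higd1b were under 1 FPKM in both groups. Endothelial markers summed to at most 7.47 FPKM in ASTs and 2.86 in A-iSCs. The part of these cells in the fall of the laminin genes was not tested.

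**Figure D4:**
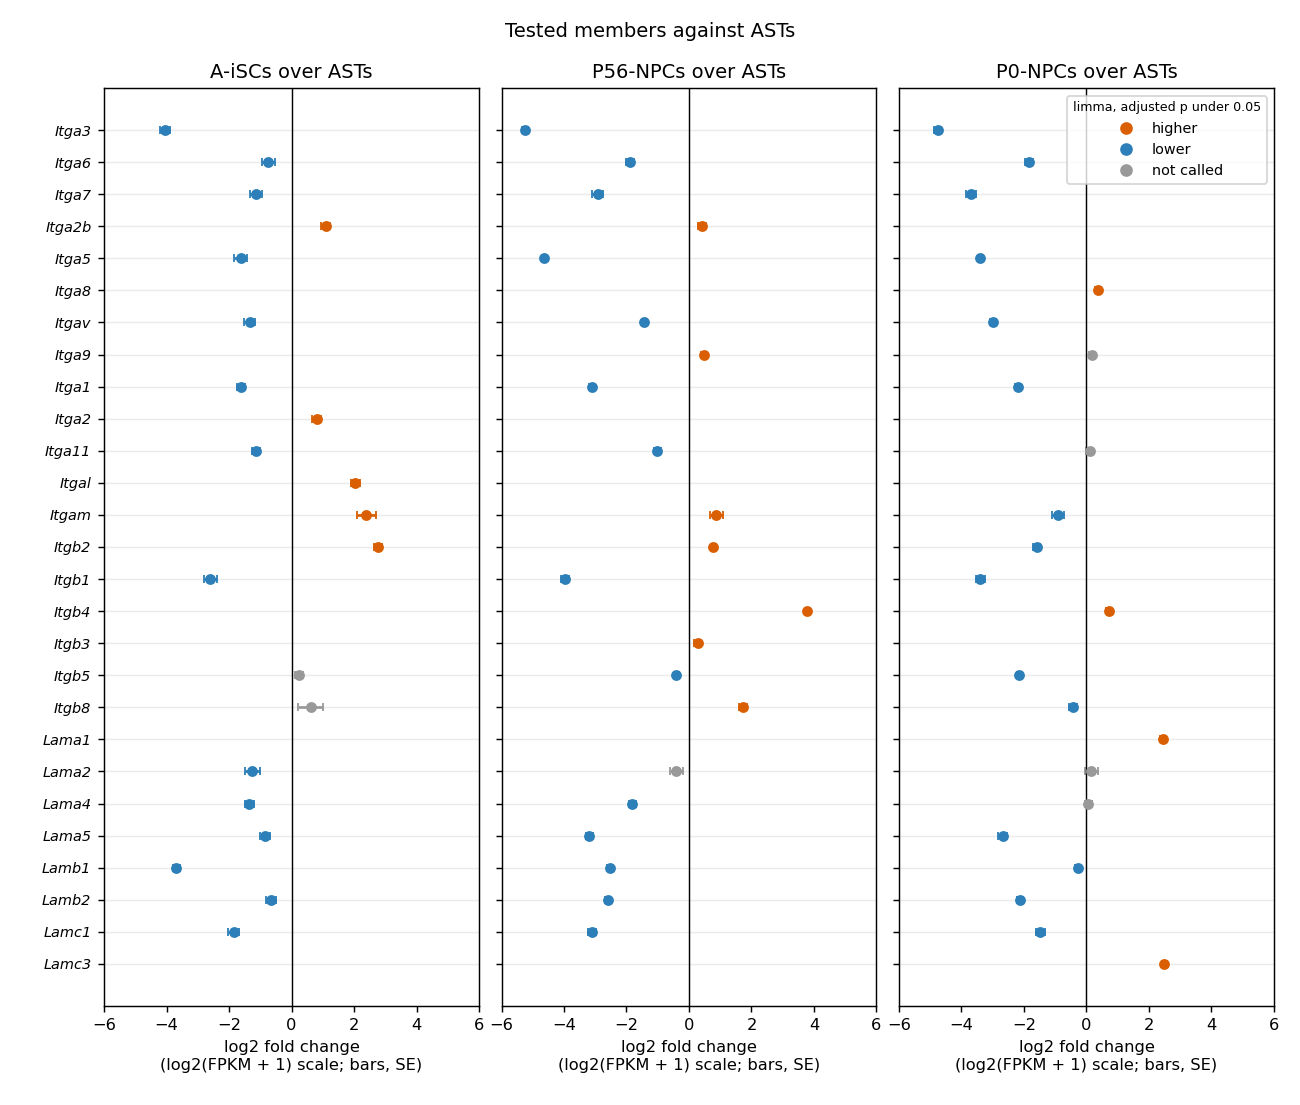
Log2 fold change of tested integrin and laminin genes over ASTs in A-iSCs, P56-NPCs and P0-NPCs, on the log2(FPKM + 1) scale with its standard error. Orange is higher, blue lower and gray not called by limma at an adjusted p under 0.05. Laminin genes lie to the left of 0 in A-iSCs and P56-NPCs, while Lama1 and Lamc3 lie to the right in P0-NPCs.

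The proteins around these chains were followed in 3 lists, whose counts in A-iSCs over ASTs stand beside 29.6% of all genes tested called lower, 25.2% called higher and a median of -0.059. Of 26 adaptors and kinases found at integrin adhesions, 25 were tested in A-iSCs over ASTs, with 20 lower, 2 higher and 3 not called, and a median log2 fold change of -0.75. The actin crosslinkers Actn1 (179.8 to 22.9 FPKM) and Actn4 (189 to 38.1 FPKM) had the largest falls, with -2.92 ± 0.13 (SE, adjusted p = 6.21e-06) and -2.28 ± 0.12 (SE, adjusted p = 1.10e-05). The 2 that rose are known from blood cells, Fermt3 with 2.4 ± 0.20 (SE, adjusted p = 7.32e-05) and Parvg with 2.21 ± 0.10 (SE, adjusted p = 6.91e-06). Ilk, among the 20, shares 76.8% of its exon bases with Taf10 on the other strand, so its level is uncertain.

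Of 15 laminin partners and other laminin receptors, all were tested, and 10 fell and 5 were not called in the same comparison, where 29.6% of all genes tested fell. Their median was -0.79. The collagen IV chains Col4a1 and Col4a2 fell most, from 87.8 to 5.9 and from 41.4 to 3.23 FPKM, with -3.66 ± 0.17 (SE, adjusted p = 7.56e-06) and -3.31 ± 0.16 (SE, adjusted p = 7.56e-06). The smallest called falls were those of the laminin receptor gene Bcam (-0.75 ± 0.10 (SE, adjusted p = 8.13e-04)) and of sarcoglycan gene Sgce (-0.37 ± 0.10 (SE, adjusted p = 0.0203)).

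Of 18 other integrin ligands, 15 were tested, and 10 fell, 3 rose and 2 were not called, where 29.6% of all genes tested fell and 25.2% rose. The median was -1.60, and the 3 that rose are a share near that of all genes. Thrombospondin gene Thbs1 went from 723 to 18.9 FPKM and tenascin gene Tnc from 347 to 29.2 FPKM, with -5.19 ± 0.19 (SE, adjusted p = 4.06e-06) and -3.53 ± 0.14 (SE, adjusted p = 5.19e-06). Osteopontin gene Spp1 rose from 270.2 to 1523 FPKM, with 2.48 ± 0.21 (SE, adjusted p = 7.38e-05), and Tgfb1 from 4.61 to 14.7 FPKM, with 1.43 ± 0.24 (SE, adjusted p = 0.00197). The third that rose was Icam1, the ligand of Itgal and Itgb2, at 0.35 ± 0.10 (SE, adjusted p = 0.0202), named here after its value was seen.

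The brain suspensions served as positive controls for a stem cell state in the study, and each was compared with the same AST samples. The 3 comparisons with ASTs therefore share their controls, and values are given side by side. In P56-NPCs, 15 of 23 genes tested were lower than in ASTs, 7 higher and 1 not called, where 39.8% of 15146 genes tested were lower and 39.1% higher. In P0-NPCs, 16 of 24 were lower, 4 higher and 4 not called, where 40.9% of 15010 were lower and 38.1% higher. The medians were -1.81 and -1.53, against -0.030 and -0.068 over all genes tested. A gene that reached 1 FPKM in only 1 group could be called only in its favor. For P56-NPCs this was ASTs for Itga1, Itga5, Itga11 and Lama4, and P56-NPCs for Itga2b, Itga9, Itgb3 and Itgb4. For P0-NPCs it was ASTs for Itgam and Itgb2, and P0-NPCs for Itga8, Itga9, Itgb4, Lama1 and Lamc3.

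For Itgb1 the log2 fold changes over ASTs were -3.96 ± 0.14 in P56-NPCs and -3.4 ± 0.15 in P0-NPCs, and for Itga3 they were -5.24 ± 0.10 and -4.75 ± 0.11. Itga5 was lower by -4.64 ± 0.065 and -3.4 ± 0.075, Itga7 by -2.92 ± 0.18 and -3.7 ± 0.16, and Itga1 by -3.12 ± 0.095 and -2.19 ± 0.10. The largest adjusted p of these 10 values was that of Itga7 in P56-NPCs, 5.05e-06. Itgb5 was lower in P56-NPCs by -0.40 ± 0.078 (SE, adjusted p = 0.00218) and in P0-NPCs by -2.15 ± 0.082 (SE, adjusted p = 2.17e-07).

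The beta chains Itgb4 and Itgb8 were higher in P56-NPCs than in ASTs. Itgb4, which pairs with the Itga6 chain to bind laminin at the base of epithelia, was at 0.34, 0.19 and 0.192 FPKM in ASTs, 0.608, 0.666 and 0.574 in A-iSCs, 15.8, 15.7 and 16.5 in P56-NPCs and 0.941, 1.11 and 1.08 in P0-NPCs. All P56-NPC samples lay far above the samples of the other groups, of which P0-NPC replicate 2 was the highest. The log2 fold change over ASTs was 3.78 ± 0.077 (SE, adjusted p = 3.67e-08), and Itgb4 gave 10.9% ± 0.52 of the beta chain FPKM in P56-NPCs. For Itgb8, whose samples are given above, the log2 fold change of P56-NPCs over ASTs was 1.73 ± 0.14 (SE, adjusted p = 2.06e-05). Itga9, a receptor chain for tenascin and other ligands, was higher at a low level, 1.75 against 0.974 FPKM (0.48 ± 0.094 (SE, adjusted p = 0.00251)).

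Oligodendrocyte markers summed to 12128 to 13975 FPKM and ependymal markers to 286 to 389 FPKM in P56-NPCs, against at most 86.9 and 112 FPKM in any sample of the other groups. Astrocyte markers summed to 2865 to 3107 FPKM in P56-NPCs, 121 to 136 in ASTs, 1194 to 2426 in A-iSCs and 234 to 297 in P0-NPCs. All 8 were called higher in P56-NPCs than in ASTs, where 39.1% of all genes tested were. The part of these cell types in the levels of Itgb4 and Itgb8 was not tested. Itgam and Itgb2 were also higher in P56-NPCs than in ASTs, by 0.88 ± 0.20 (SE, adjusted p = 0.00466) and 0.77 ± 0.082 (SE, adjusted p = 9.33e-05), beside the microglia markers given above. Itgad was at 0.996, 0.718 and 1.01 FPKM in P56-NPCs and Itgb7 at 0.582, 0.36 and 0.986 FPKM in P56-NPCs, both too low for a test. T cell markers reached 1.90 to 2.85 FPKM there, of which Trac gave a mean of 2.13 FPKM. The call of Itgb3 in P56-NPCs (0.28 ± 0.11 (SE, adjusted p = 0.0492)) was lost without any AST replicate (adjusted p of 0.0641, 0.123 and 0.0785 without replicate 1, 2 and 3) and without P56-NPC replicate 3 (0.0646), with log2 fold changes from 0.21 to 0.32. It was lost too without the filter (adjusted p = 0.0902) and under upper-quartile scaling (0.21, adjusted p = 0.115).

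Of 7 laminin genes tested, 6 were lower in P56-NPCs than in ASTs and 1 was not called, where 39.8% of all genes tested were lower. Lama4 reached 1 FPKM only in ASTs, so it could be called only lower. Lama3 and Lamb3, not tested, had higher means in P56-NPCs, 0.421 against 0.0836 and 0.542 against 0.0975 FPKM in ASTs. Those of Lama1 and Lamc3, also not tested, were lower. Lama5 was lower by -3.19 ± 0.12, Lamc1 by -3.1 ± 0.13, Lamb2 by -2.6 ± 0.083 and Lamb1 by -2.54 ± 0.073 on the log2 scale, with an adjusted p of at most 8.57e-07. Lama4 was lower too, by -1.81 ± 0.12 (SE, adjusted p = 5.89e-06). Lama2 was the exception, at 2.0 against 3.08 FPKM, with a log2 fold change of -0.41 ± 0.21 (SE, adjusted p = 0.114) that was not called. Without AST replicate 2, which had the lowest level of Lama2 in ASTs, it was -0.66 (adjusted p = 6.28e-04), and under library size scaling -0.62 (adjusted p = 0.0278). Lama2 gave 41.8% ± 4.49 and Lama5 44.5% ± 2.76 of the laminin alpha FPKM in P56-NPCs, and the samples of the 2 genes overlapped in share.

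The laminin genes Lama1 and Lamc3 were higher in P0-NPCs than in ASTs. Lama1, an alpha chain of embryonic basement membranes, was at 0.179, 0.0764 and 0.139 FPKM in ASTs, 0.0769, 0.0521 and 0.0462 in A-iSCs, 0.0476, 0.0579 and 0.069 in P56-NPCs and 5.78, 4.77 and 5.18 in P0-NPCs. Lamc3, a gamma chain known from the pial surface of the developing cortex, was at 0.196, 0.13 and 0.177 FPKM in ASTs, 0.00815, 0.0207 and 0.0429 in A-iSCs, 0.142, 0.0716 and 0.15 in P56-NPCs and 5.43, 5.31 and 5.94 in P0-NPCs. For both, the P0-NPC samples started at 4.77 FPKM, and no other sample was above 0.196 FPKM. The log2 fold changes over ASTs were 2.46 ± 0.10 (SE, adjusted p = 2.49e-07) for Lama1 and 2.49 ± 0.086 (SE, adjusted p = 1.38e-07) for Lamc3. Lamc3 counted 56 fragments in the 3 AST samples together, 11 in A-iSCs, 37 in P56-NPCs and 2694 in P0-NPCs. Lama1 gave 33.5% ± 1.31 of the laminin alpha FPKM and Lamc3 21.7% ± 1.04 of the laminin gamma FPKM in P0-NPCs.

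The P0-NPC laminin alpha chains were thus spread over 4 genes, with Lama5 at 22.1% ± 2.75, Lama2 at 22.1% ± 3.85 and Lama4 at 21.2% ± 1.69 beside Lama1. Lama2 (0.16 ± 0.21 (SE, adjusted p = 0.499)) and Lama4 (0.062 ± 0.12 (SE, adjusted p = 0.643)) were not called against ASTs, and without AST replicate 2 their log2 fold changes turned to -0.096 and -0.051 (adjusted p of 0.405 and 0.602). That of Lama4 was also -0.020 under upper-quartile scaling. Lamb1 was lower by -0.29 ± 0.085 (SE, adjusted p = 0.0143), a call lost without AST replicate 1 (-0.26, adjusted p = 0.0618) and under library size scaling (-0.016, adjusted p = 0.887). Endothelial markers summed to 78.2 to 82.2 FPKM in P0-NPCs, against at most 7.47 FPKM in any other sample, and meningeal markers are given above, and their part in these laminin levels was not tested.

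Among integrin genes, Itga8 and Itgb4 were higher in P0-NPCs than in ASTs, by 0.37 ± 0.10 (SE, adjusted p = 0.00886) and 0.72 ± 0.10 (SE, adjusted p = 2.38e-04), both at about 1 FPKM. Itgam and Itgb2 were lower, by -0.92 ± 0.20 (SE, adjusted p = 0.00302) and -1.59 ± 0.11 (SE, adjusted p = 5.45e-06). Itgb8 was lower by -0.43 ± 0.13 (SE, adjusted p = 0.0181), a call lost without AST replicate 1 or 3 (-0.38 and -0.33) and without P0-NPC replicate 1 or 3 (both -0.42), where the adjusted p ranged from 0.0558 to 0.0637. It was lost as well with all 4 groups in the model (adjusted p = 0.228) and under library size scaling (-0.19, adjusted p = 0.253). Itga9 and Itga11 were not called, at 0.18 ± 0.11 (SE, adjusted p = 0.148) and 0.10 ± 0.11 (SE, adjusted p = 0.422), but Itga9 was called under library size scaling (0.34, adjusted p = 0.0206).

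**Figure D5:**
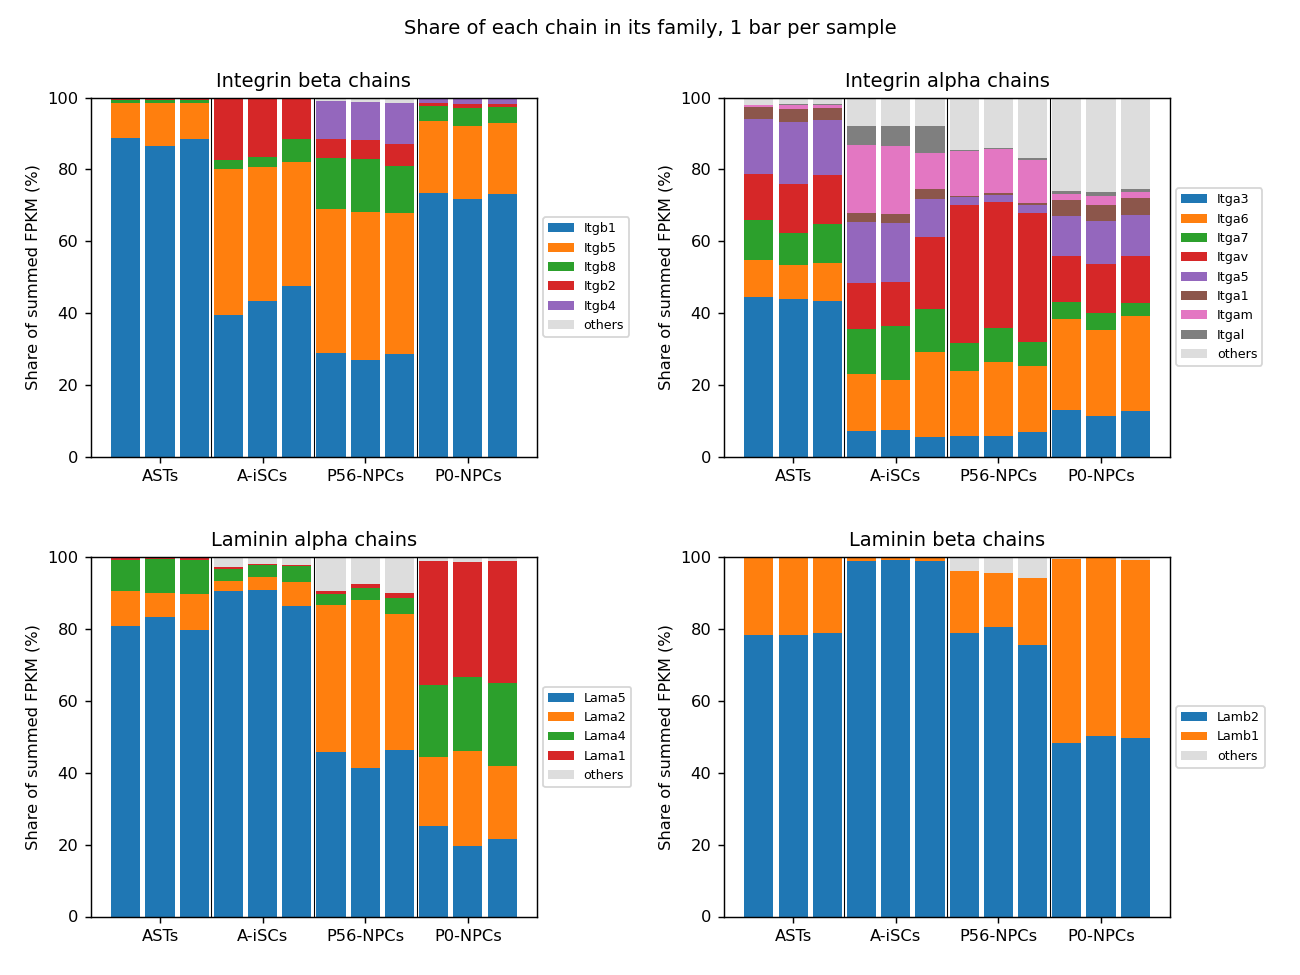
Share of each chain in the summed FPKM of its family, with 1 bar per sample and the 3 bars of a group side by side, for integrin beta, integrin alpha, laminin alpha and laminin beta chains. Itgb1 takes most of the beta chain total in ASTs and P0-NPCs but not in A-iSCs and P56-NPCs, and Lamb1 is nearly absent from the laminin beta total of A-iSCs.

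The A-iSCs were then compared with each suspension directly. Against P56-NPCs, A-iSCs had 16 of 23 genes higher, 6 lower and 1 not called, where 30.1% of 15044 genes tested were higher and 30.9% lower. The median log2 fold change was 1.18, and 0.029 over all genes tested. Itga1, Itga2, Itga5 and Itgal reached 1 FPKM only in A-iSCs, so the filter left them no direction but higher. Conversely, Itga9, Itgb3, Itgb4, Lama2 and Lamb1 reached it only in P56-NPCs and could be called only lower. All 3 laminin-binding alpha genes were higher in A-iSCs, as were Itgb1 (1.37 ± 0.16 (SE, adjusted p = 3.10e-04)), Itga5 (3.0 ± 0.20 (SE, adjusted p = 1.60e-05)) and Itga1 (1.5 ± 0.095 (SE, adjusted p = 1.40e-05)). Of the laminins, Lama5 (2.33 ± 0.12 (SE, adjusted p = 4.87e-06)), Lamb2 (1.95 ± 0.14 (SE, adjusted p = 2.80e-05)) and Lamc1 were among those higher, and Lamb1 (-1.14 ± 0.10 (SE, adjusted p = 5.67e-05)) and Lama2 (-0.84 ± 0.15 (SE, adjusted p = 0.00247)) were lower. The leukocyte genes were higher too, with 2.52 ± 0.12 for Itgal, 2.0 ± 0.12 for Itgb2 and 1.52 ± 0.25 for Itgam, where 4 of 8 microglia markers were called higher in A-iSCs and 2 lower.

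Itgb4 had the largest difference in the other direction, -3.39 ± 0.085 (SE, adjusted p = 3.09e-07). Itgb8 was lower in A-iSCs by -1.12 ± 0.39 (SE, adjusted p = 0.0396) although the groups overlapped, A-iSC replicate 3 being within the range of P56-NPCs. That call was lost without A-iSC replicate 1 or 2 and without any P56-NPC replicate, with log2 fold changes of -0.88, -0.86, -1.09, -1.08 and -1.18 and an adjusted p of 0.0761 to 0.124. It was also lost without the filter on low values (adjusted p = 0.0878) and under library size scaling (-0.60, adjusted p = 0.197). Itgav was not called, at 0.089 ± 0.16 (SE, adjusted p = 0.66), and its value turned to -0.091 (adjusted p = 0.330) without A-iSC replicate 3, and under library size scaling it was called higher in A-iSCs (0.60, adjusted p = 0.0132). Itga9 was lower by -0.46 ± 0.12 (SE, adjusted p = 0.0122), which library size scaling reduced to -0.14 (adjusted p = 0.298).

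Against P0-NPCs, A-iSCs had 17 of 27 genes higher, 9 lower and 1 not called, where 31.5% of 15170 genes tested were higher and 33.6% lower. The integrin and laminin genes tested split. Of 18 integrin genes 14 were higher, among them Itgb2 (4.36 ± 0.14 (SE, adjusted p = 5.32e-07)), Itgam (3.32 ± 0.25 (SE, adjusted p = 1.61e-05)), Itga7 (2.57 ± 0.12 (SE, adjusted p = 2.00e-06)) and Itgb5 (2.4 ± 0.12 (SE, adjusted p = 2.09e-06)), with a median of 1.03. Of 9 laminin genes 6 were lower, namely Lamb1 (-3.39 ± 0.10 (SE, adjusted p = 4.70e-07)), Lamc3 (-2.68 ± 0.10 (SE, adjusted p = 8.29e-07)), Lama1 (-2.56 ± 0.11 (SE, adjusted p = 1.21e-06)), Lama2, Lama4 and Lamc1, with a median of -1.41. Lama5 and Lamb2 were among those higher, by 1.82 ± 0.15 and 1.48 ± 0.14. The median over all genes tested was -0.019. Of the 6 lower laminin genes only Lamc1 reached 1 FPKM in A-iSCs, so the filter left the others no direction but lower. The same held for Itga8, Itga11 and Itgb4. Conversely, Itga2, Itga2b, Itgal, Itgam and Itgb2 reached it only in A-iSCs and could be called only higher. These genes are part of the counts and medians. In the same comparison all 8 microglia markers were called higher, and 8 of 8 meningeal fibroblast, 8 of 8 neuron, 7 of 8 endothelial and 6 of 8 mural cell markers lower. Of the 8 astrocyte markers 5 were called higher and 1 lower. The part of these cell types in the differences was not tested.

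Some of these calls were marginal. That of Lamc1 (-0.37 ± 0.13 (SE, adjusted p = 0.0317)) was lost without A-iSC replicate 1 or 2 and without any P0-NPC replicate, with log2 fold changes from -0.30 to -0.37 and an adjusted p of 0.0803 to 0.109. Itgb8 was higher by 1.04 ± 0.37 (SE, adjusted p = 0.0389), which became 0.54 (adjusted p = 6.46e-04) without A-iSC replicate 3 and was lost without any P0-NPC replicate, with log2 fold changes of 1.03 to 1.06 and an adjusted p of 0.0934 to 0.0986, and without the filter (0.0958). Itgb4 was lower by -0.34 ± 0.10 (SE, adjusted p = 0.0226), lost without A-iSC replicate 1 or 2 or P0-NPC replicate 3, with log2 fold changes from -0.32 to -0.36 and an adjusted p of 0.0527 to 0.0570.

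The 2 suspensions differed from each other as well. In P56-NPCs over P0-NPCs all 8 laminin genes tested were lower, with a median of -1.75, and 10 of 17 integrin genes were higher and 6 lower. Over all 25 genes this was 10 higher, 14 lower and 1 not called, where 39.7% of 15394 genes tested were higher and 39.0% lower. Lama1, Lama4, Lamc3, Itga1, Itga5, Itga8 and Itga11 reached 1 FPKM only in P0-NPCs, so the filter left them no direction but lower. Conversely, Itga2b, Itgam, Itgb2 and Itgb3 reached it only in P56-NPCs and could be called only higher. Lama3 and Lamb3, not tested, had higher means in P56-NPCs. On the log2(FPKM + 1) scale the laminin differences were largest for Lama1 (-2.56 ± 0.089 (SE, adjusted p = 2.42e-07)), Lamc3 (-2.55 ± 0.082 (SE, adjusted p = 1.78e-07)), Lamb1 (-2.25 ± 0.073 (SE, adjusted p = 1.78e-07)) and Lama4 (-1.88 ± 0.088 (SE, adjusted p = 9.31e-07)). Itgb4 (3.06 ± 0.066 (SE, adjusted p = 3.61e-08)), Itgb2 (2.36 ± 0.10 (SE, adjusted p = 7.27e-07)), Itgb8 (2.16 ± 0.074 (SE, adjusted p = 2.20e-07)), Itgam (1.8 ± 0.086 (SE, adjusted p = 1.04e-06)), Itgb5 (1.75 ± 0.057 (SE, adjusted p = 1.78e-07)) and Itgav (1.56 ± 0.063 (SE, adjusted p = 4.46e-07)) were higher in P56-NPCs. Beside these, all 8 microglia, all 8 astrocyte and all 8 oligodendrocyte markers were called higher in P56-NPCs. All 8 meningeal fibroblast, 7 of 8 endothelial and 6 of 8 mural cell markers were called lower. The part of these cell types in the integrin and laminin values was not tested.

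Itgb1 (-0.56 ± 0.064 (SE, adjusted p = 1.08e-04)), Itga5 (-1.24 ± 0.074 (SE, adjusted p = 3.01e-06)), Itga8 (-1.0 ± 0.11 (SE, adjusted p = 7.24e-05)), Itga11 (-1.11 ± 0.094 (SE, adjusted p = 1.94e-05)), Itga1 and Itga3 were lower. Itga6 was not called, at -0.048 ± 0.082 (SE, adjusted p = 0.602), but was lower under library size scaling (-0.59, adjusted p = 1.64e-04). Of the small differences, that of Itga2b (0.34 ± 0.12 (SE, adjusted p = 0.0341)) was lost without P56-NPC replicate 1 or 3 or P0-NPC replicate 2 or 3, with log2 fold changes from 0.25 to 0.35 and an adjusted p of 0.0739 to 0.0969. That of Itga9 (0.30 ± 0.10 (SE, adjusted p = 0.0253)) was lost without P56-NPC replicate 1 or 2 or P0-NPC replicate 1 or 2, with log2 fold changes from 0.24 to 0.30 and an adjusted p of 0.0613 to 0.0795, and turned to -0.078 under library size scaling. Both were lost without the filter, with an adjusted p of 0.0711 and 0.0633.

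In the lists around these genes, adaptors and kinases were lower than in ASTs for 16 of 25 in P56-NPCs (6 higher) and for 18 of 25 in P0-NPCs (3 higher), where 39.8% and 40.9% of all genes tested were lower and 39.1% and 38.1% higher. Laminin partners and receptors were lower for 13 of 15 and 10 of 15, with 1 higher in each. Other ligands were lower for 13 of 17 in P56-NPCs and 12 of 18 in P0-NPCs, and 3 and 5 were higher. Between A-iSCs and P56-NPCs, 9 of 24 adaptors were higher in A-iSCs and 10 lower, beside 30.1% and 30.9% of all genes tested. In A-iSCs over P0-NPCs 12 of 24 adaptors were higher and 2 lower, beside 31.5% and 33.6%, and in P56-NPCs over P0-NPCs 13 of 24 were higher and 5 lower, beside 39.7% and 39.0%. Col4a1 was at 2.42 FPKM in P56-NPCs and 70.8 in P0-NPCs, and Spp1 at 1.34 and 21.1 FPKM.

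Itga4, Itga10, Itgad, Itgae, Itgax, Itgb6, Itgb7, Lama3 and Lamb3 stayed under a mean of 1 FPKM in every group and were not tested in any comparison. Itga4, an alpha chain of leukocytes and neural crest cells, came closest, with a mean of 0.971 ± 0.181 FPKM in P0-NPCs. Itgb6, an epithelial chain, was lowest, with no sample above 0.0984 FPKM. The epithelial laminin genes Lama3 and Lamb3 had their highest group means in P56-NPCs, at 0.421 ± 0.0559 and 0.542 ± 0.108 FPKM (SD, n = 3).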

How the data were processed

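The 12 libraries were made by the authors from NEBNext Ultra kits and read in pairs on an Illumina HiSeq platform. The authors deposited FPKM for 55862 genes with gene lengths and positions. The submitters' processing notes name Bowtie 0.12.2 and the mouse build mm8, yet all 37 genes had the position given by GENCODE M21 on GRCm38. Strand-specific counting is not given in the sources used here. Multiplied by gene length, each FPKM value was a whole multiple (tolerance 0.01) of 1 step per sample, which gave the fragments per gene. Implied library sizes were 0.744 to 1.22 times these fragments, so they were not the plain totals. How they were set is not given in the sources used here.

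Groups were compared 2 at a time, as in the study, with limma 3.58.1 in R 4.3.3 on log2(FPKM + 1), with a variance trend, over genes with a mean of at least 1 FPKM in 1 of the 2 groups. The study used DESeq2, which was not run here on the recovered fragments. Alternatives were a pseudocount of 0.1, no filter, scaling by library size or upper quartile, all 4 groups in the model, a replicate block, limma-voom on the recovered fragments and leaving out each sample. Leaving out AST replicate 2 and A-iSC replicate 3 together was added after the data were seen. The fit was tested on simulated data.

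Genes with a mean of at least 5 FPKM in any group are given per sample, except 1 that is not reported here, and of each list around them the called genes with the 2 largest and 2 smallest log2 fold changes in A-iSCs over ASTs are named. Genes and lists were chosen with earlier results of these data known. Older symbols were matched to Ccn1, Ccn2 and Ccn3. Promoter windows came from RefSeq on GRCm38.p6 and were held for 23 of 37 genes. Python 3.11.15, numpy 2.4.6, pandas 2.3.3 and matplotlib 3.10.9 were used. All per-sample columns were used.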

Additional observations from a re-analysis of the deposited data

How the results depend on the processing

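Of 1886 values of integrin and laminin genes recomputed under the alternatives, 1818 kept their direction and their side of the threshold. A pseudocount of 0.1 and limma-voom on the recovered fragments changed no call among 144 values each, although low genes moved more, such as Itga11 in A-iSCs over ASTs, at -3.26 and -5.15 on the log2 scale. Without the filter, more genes could be tested, and in A-iSCs over ASTs 9 were called higher and 18 lower (14.2% and 14.1% of all genes), in P56-NPCs over ASTs 11 and 19 (26.2% and 22%) and in P0-NPCs over ASTs 9 and 19 (26.3% and 21.1%). Scaling by library size moved the median of all genes to 0.13, -0.34 and 0.21 in the 3 comparisons with ASTs, to 0.49 and -0.094 in A-iSCs over P56-NPCs and P0-NPCs, and to -0.53 in P56-NPCs over P0-NPCs. Under it 3 genes were lower in A-iSCs than in P56-NPCs, in place of 6, while the share of all genes called lower went from 30.9% to 19.2% and that called higher from 30.1% to 55.9%, and Itga9 in P56-NPCs over P0-NPCs turned to -0.078. Directions also turned, each for a value that was not called, for Lama4 in P0-NPCs over ASTs under upper-quartile scaling (-0.020) and without AST replicate 2 (-0.051), for Lama2 there without AST replicate 2 (-0.096), for Itgav in A-iSCs over P56-NPCs without A-iSC replicate 3 (-0.091), and for Itgb8 in A-iSCs over ASTs without AST replicate 2 and A-iSC replicate 3 (-0.033). The cause was not tested. Over single left-out samples these ranged from -0.051 to 0.15 for Lama4, from -0.096 to 0.29 for Lama2, from -0.091 to 0.22 for Itgav and from 0.12 to 0.86 for Itgb8.

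Leaving out each sample in turn gave 5 higher and 14 to 15 lower genes in A-iSCs over ASTs (19.9 to 29.5% and 23.3 to 33.6% of all genes), 6 to 7 and 15 to 16 in P56-NPCs over ASTs (36.8 to 40.8% and 36.5 to 41.9%), and 4 to 5 and 14 to 16 in P0-NPCs over ASTs (36.3 to 39.1% and 38.1 to 42.2%). It gave 16 and 5 to 6 in A-iSCs over P56-NPCs (23.6 to 37.4% and 26.7 to 36.6%), 16 to 17 and 7 to 9 in A-iSCs over P0-NPCs (26.9 to 36.9% and 29.5 to 38.4%), and 8 to 9 and 14 to 15 in P56-NPCs over P0-NPCs (37.6 to 39.1% and 36.1 to 37.8%). The labels number replicates 1 to 3 in each group, but not every same-numbered pair deviated together, with correlations of deviations between ASTs and A-iSCs of -0.41, 0.35 and 0.45, and not every sample correlated best with its own number in any comparison. With the replicate number as a block, 5 higher and 15 lower genes were called in A-iSCs over ASTs (26.2% and 30.2% of all genes). Calls were lost under the block for Itgb3 in P56-NPCs over ASTs (0.28), for Itgb4 (-0.34) and Lamc1 (-0.37) in A-iSCs over P0-NPCs, and for Itga2b (0.34) and Itga9 (0.30) in P56-NPCs over P0-NPCs, with an adjusted p from 0.0546 to 0.112. The 9 genes under 1 FPKM in every group were left untested by the filter. Their fragments per sample differed, from 35 to 376 for Itga4 and from 0 to 13 for Itgb6. The depth of 17077780 to 24452419 fragments limits statements on those with few fragments.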
